A study of Mus musculus with 16 samples.

Results

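The endothelial cells that line the capillaries and small veins of the mouse hypothalamus and preoptic area (hypothalamus-POA) were examined in 16 single-cell Drop-seq libraries, each made from the tissue of 1 mouse. Unique molecular identifiers (UMIs) count captured mRNA molecules. A barcode was kept as a cell when its number of detected genes lay above 200 and below 4000 and mitochondrial genes took under 15% of its UMIs. A kept cell was called a non-arterial endothelial cell when at least 3 of 8 endothelial genes were detected (*Flt1*, *Cldn5*, *Ly6c1*, *Pecam1*, *Itm2a*, *Slco1a4*, *Ly6a* and *Abcb1a*), when the arterial gene *Gkn3* had under 2 UMIs, and when at most 1 of 13 genes of other cell types was detected. This rule chose 5803 of 55675 kept cells (10.4%), out of 146538 deposited barcodes. The chosen cells held 5444671 UMIs in all, with a median of 677 UMIs and 507 genes per cell.

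Wild-type mice were Cre-negative littermates on a mixed CD-1;129P2 background, and *Esr1* cKO mice carried 2 floxed *Esr1* alleles with an *Nkx2-1Cre* BAC transgene, which removes the gene for estrogen receptor alpha (ERα) in cells of the *Nkx2-1* lineage. All mice were labelled female, were 8 to 10 weeks old at the start, and received 28 daily subcutaneous injections of corn oil or of tamoxifen at 0.1 mg/kg, with tissue taken 2 hr after the last injection. The groups were wild-type with oil (n = 3; libraries 1, 5 and 10), wild-type with tamoxifen (n = 5; libraries 3, 8, 9, 13 and 16), *Esr1* cKO with oil (n = 4; libraries 4, 7, 12 and 14) and *Esr1* cKO with tamoxifen (n = 4; libraries 2, 6, 11 and 15). *Nkx2-1* was nearly absent from the endothelial cells, with 1.65 CPM (UMIs per 1000000 UMIs) over all of them pooled against 17.6 CPM in all other kept cells.

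Brain endothelial cells form the blood-brain barrier. Tight junctions seal the gaps between neighbouring cells, few vesicles cross the wall, and nutrients enter through dedicated carriers for glucose, amino acids, lactate, iron and fatty acids, while efflux pumps return many drugs to the blood. Along the vessel tree the cells change from arterial through capillary to venous character, and in the median eminence, at the base of the hypothalamus, the capillaries are fenestrated and carry *Plvap*, the protein of the fenestral diaphragm. Wnt signalling maintains the barrier program, and VEGF receptors set vessel growth and leakiness.

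Some libraries stood apart before any comparison. In the summed endothelial profiles, the first principal component carried 34.0% of the variance over 7444 genes and set libraries 10 (wild-type with oil, score 68.9) and 11 (*Esr1* cKO with tamoxifen, score 64.0) apart from the other 14, which scored between -29.7 and -1.96. Barcodes of these 2 libraries were deposited with at least 100 genes each, against a minimum of 20 in the other 14, and their Y-linked genes summed to 2.37 and 2.39 CPM, against 15.3 to 45.6 CPM in the other 14. Library 1 stood alone on the second component (11.4% of the variance, score 55.0 against -9.07 to 9.90 in the others) and was the shallowest, with 101071 endothelial UMIs against 816670 in library 9, the deepest. Library 12, labelled female like all others, had 0.582 CPM of *Xist*, the RNA of the inactive X chromosome, in its kept cells, against 276 to 318 in the other *Esr1* cKO libraries with oil, and its Y-linked genes summed to 45.6 CPM against 15.3 to 22.5 CPM in them. Libraries 13 to 16 shared 624 to 873 deposited barcodes per pair, against 1 to 191 in the other 114 pairs of libraries, and 360 of the 5803 endothelial cells (6.20%) had a barcode that also occurred in another library. Results were therefore also computed without libraries 10 and 11, without 10, 11 and 12, and without the cells of shared barcodes.

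The 8 genes of the rule were detected in shares of the chosen cells that ran from 91.9% for *Flt1*, a VEGF receptor, through 86.5% for *Ly6c1*, 86.0% for *Itm2a*, 79.0% for *Ly6a*, 73.4% for the organic anion carrier *Slco1a4* and 66.5% for the efflux pump *Abcb1a*, to 45.8% for the tight junction protein *Cldn5* and 36.5% for the adhesion protein *Pecam1*. These shares describe the choice of cells and are not a finding. Of the chosen cells, 547 had exactly 3 of the 8 genes and 702 had all 8. At the lower edge of the rule, the 547 cells with 3 endothelial genes had 3330 CPM of *Flt1* and 5387 CPM of *Bsg* (basigin, a carrier chaperone of brain endothelium), and the 469 cells just outside it, with 2 genes, had 840 and 1388 CPM and also held 3543 CPM of *Mgp*. The 1157 cells with 1 gene of another cell type had 4013 CPM of *Flt1*, and the 259 cells left out for having 2 such genes had 2814 CPM. The 317 cells with 1 *Gkn3* UMI had 746 CPM of *Mgp* and 281 CPM of the arterial kinase *Bmx*, against 1492 and 372 CPM in the 139 cells with 2 *Gkn3* UMIs.

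All 20 genes of the endothelial identity list, none of which is in the rule, were higher in the pooled cells than in all other kept cells, by 8.20-fold for the ETS factor *Fli1* to 57.4-fold for *Ctla2a*, with a median of 15.2-fold. The chosen cells fix much of this, so it describes them and was not tested. Marker sums for neurons, oligodendrocytes, astrocytes and microglia were low, in part because the rule itself limited some of these markers, such as *Snap25*, *Aqp4* and *C1qa*. The 10 neuronal markers summed to 540 CPM (mean of 16 libraries) against 7422 CPM in all other kept cells, the 8 oligodendrocyte markers to 1674 against 19123 CPM, the 8 astrocyte markers to 1651 against 7020 CPM, and the 8 microglial markers to 66.4 against 1659 CPM. Precursor markers summed to 66.6 against 512 CPM and fibroblast markers to 92.7 against 248 CPM. The ependymal markers summed to 677 CPM, above the 571 CPM of the other cells, and 630 CPM of this was *Tm4sf1*, which is also on the arterial-zone list. Markers of mural cells, the pericytes and smooth muscle cells that wrap the vessel, summed to 4598 CPM, above the 1298 CPM of the other cells, and 3080 CPM of this was *Rgs5*. The 5 red blood cell markers, 4 of them globins, summed to 22639 CPM with *Hbb-bs* at 9746 CPM, against 1959 CPM in the other cells.

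*Flt1* and *Cldn5* are shown here by the 250 bases before their start sites (RefSeq, GRCm38.p6), because the first was the most often detected gene of the rule and the second had the smallest p-value for tamoxifen in wild-type mice. Capitals mark GGAA, the core bound by ETS factors such as ERG and FLI1 that switch on endothelial genes, searched on both strands.
Flt1, chr5:147726012-147726261, minus strand: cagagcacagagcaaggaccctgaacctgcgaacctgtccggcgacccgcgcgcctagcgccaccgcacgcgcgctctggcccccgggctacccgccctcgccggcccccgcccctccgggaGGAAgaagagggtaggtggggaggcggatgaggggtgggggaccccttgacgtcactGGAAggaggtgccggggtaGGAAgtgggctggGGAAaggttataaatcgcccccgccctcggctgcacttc
Cldn5, chr16:18776597-18776846, plus strand: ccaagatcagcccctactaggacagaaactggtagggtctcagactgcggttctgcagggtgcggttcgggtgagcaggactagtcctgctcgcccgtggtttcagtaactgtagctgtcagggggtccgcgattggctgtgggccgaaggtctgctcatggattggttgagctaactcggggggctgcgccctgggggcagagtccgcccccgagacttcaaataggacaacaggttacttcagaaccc
GGAA occurred 4 times in the *Flt1* stretch and 0 times in that of *Cldn5*. Over the same 250 bases of all 32851 RefSeq promoters, 93.4% held GGAA on either strand, with a median of 3 matches, as did 17 of 18 promoters (94.4%) of the 12 endothelial identity genes matched by symbol, of 20 in the list. The estrogen half-site GGTCA, on either strand, was in neither of the printed stretches, in 35.2% of all promoters and in 10 of those 18, and the full palindromic estrogen response element was in 21 of all promoters (0.0639%) and in none of the 18. These counts describe letters in a short stretch and say nothing about binding of a factor.

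Levels of *Flt1* and of several barrier carriers were of the same order in every mouse. *Flt1* and *Abcb1a* belong to the rule that chose the cells, which in part fixes their levels. Values here and below are CPM in the summed endothelial UMIs of a library, which count captured 3′ ends, so no scaling by gene length applies. *Flt1* averaged 4660 ± 511 CPM (SD, n = 16), with 3766 CPM as the lowest library and 5385 as the highest. The glucose carrier *Slc2a1* averaged 1376 ± 278 CPM and ranged from 792 CPM in library 1 to 1973 CPM in library 12. The thyroid hormone carrier *Slco1c1* averaged 1792 ± 197 CPM, *Abcb1a* 1660 ± 183, *Abcg2*, another efflux pump, 734 ± 121, and the transferrin receptor *Tfrc*, which brings in iron, 612 ± 142. *Mfsd2a*, the carrier of lipid-bound omega-3 fatty acid that also holds down vesicle transport, averaged 299 ± 52.3 CPM. *Slc16a1*, the lactate and ketone carrier, varied more, from 156 CPM in library 4 to 781 CPM in library 10, and the interferon-responsive MHC gene *H2-D1* ranged from 1241 to 3512 CPM.

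*Esr1*, the gene targeted in the cKO, had 160 UMIs in all. In the wild-type libraries with oil it stood at 109, 37.3 and 0 CPM (libraries 1, 5 and 10), where 0 of 295692 UMIs allows up to 10.1 CPM (3 counts, counting error only). In wild-type libraries with tamoxifen it was 65.1, 31.5, 30.6, 36.3 and 15.8 CPM, in *Esr1* cKO with oil 10.4, 20.6, 28.1 and 24.2 CPM, and in *Esr1* cKO with tamoxifen 37.9, 50.1, 6.52 and 33.4 CPM. The 4 groups overlapped, and the pooled endothelial level (29.4 CPM) was below that of all other kept cells (43.4 CPM), of astrocyte-rule cells (39.5 CPM) and of microglia-rule cells (93.8 CPM). *Esr1* gave no check of the genotype in these cells. *Gper1*, the membrane estrogen receptor, averaged 42.2 ± 13.8 CPM against 2.40 CPM in astrocyte-rule cells, 134 in *Gkn3*-positive endothelial cells and 322 CPM in pericyte-rule cells (all 3 pooled). The glucocorticoid receptor *Nr3c1* averaged 361 ± 55.8 CPM, higher than its pooled 194 CPM in all other kept cells.

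The first comparisons asked whether tamoxifen or loss of ERα changed how many endothelial cells were recovered. Their share of kept cells was 7.85%, 11.1% and 8.55% in wild-type mice with oil (9.16% ± 1.70, SD, n = 3), and 7.26%, 7.34%, 14.9%, 10.96% and 10.3% in wild-type mice with tamoxifen (10.2% ± 3.15, n = 5). It was 7.53%, 9.16%, 9.46% and 10.6% in *Esr1* cKO mice with oil (9.19% ± 1.28, n = 4), and 9.36%, 14.1%, 11.1% and 13.1% in *Esr1* cKO mice with tamoxifen (11.9% ± 2.13, n = 4). The groups overlapped in each comparison. Tamoxifen differed from oil by 1.005 percentage points in wild-type mice (two-sided exact permutation test, p=0.696, adj. p=0.696, smallest p allowed 0.0179). In *Esr1* cKO mice it differed by 2.75 points (two-sided exact permutation test, p=0.0857, adj. p=0.257, smallest p allowed 0.0286). Without library 9 the wild-type difference was -0.185 points, and without library 2 that in *Esr1* cKO mice was 3.61 points (exact permutation p=0.0286, not adjusted). *Esr1* cKO differed from wild-type by 0.905 points within treatment (exact p=0.405, adj. p=0.607). Compared within successive fours of library numbers (1 to 4, 5 to 8, 9 to 12 and 13 to 16), the share in *Esr1* cKO mice was higher with tamoxifen in 4 of 4 pairs (exact permutation p=0.125, the smallest that 4 pairs allow). The study prepared all groups in parallel over 4 days, but the labels do not tie mice to days, so the fours stand for library numbers only.

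**Figure D1:**
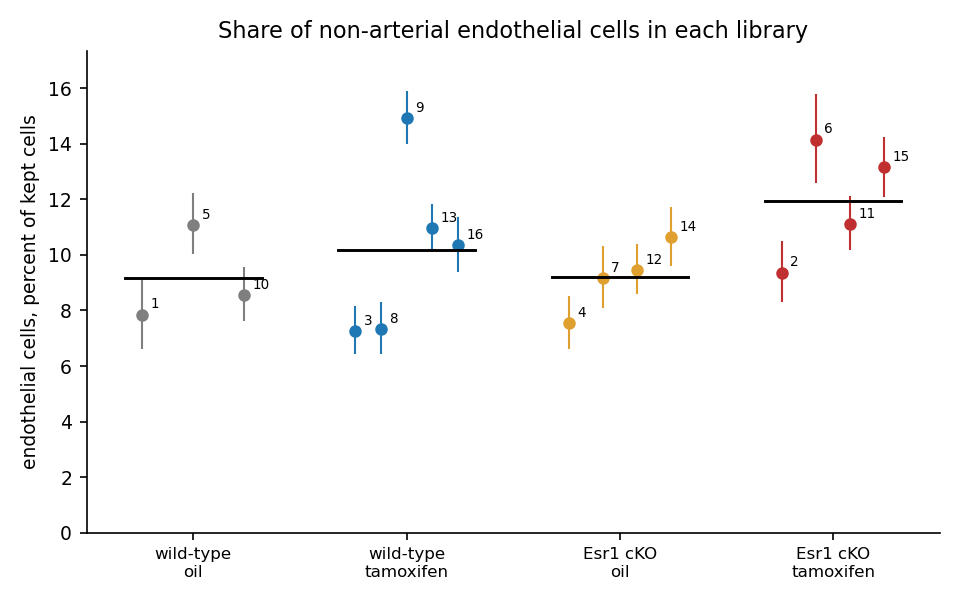
Non-arterial endothelial cells as a percent of kept cells (y axis) in the 16 libraries, grouped by genotype and treatment (x axis). Points are libraries with their numbers, thin bars are exact 95% binomial intervals (counting error only) and thick bars are group means. The libraries of *Esr1* cKO mice with tamoxifen lie between 9.36% and 14.1%, overlapping those with oil (7.53% to 10.6%).

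After a filter on low counts, no gene passed an adjusted p of 0.05 for tamoxifen or genotype in these cells. UMIs were summed over the endothelial cells of each mouse, and edgeR's quasi-likelihood test called 0 of 7444 genes (0%) for tamoxifen in wild-type mice, in *Esr1* cKO mice, for the interaction of both and for genotype, after Benjamini-Hochberg adjustment. At an unadjusted p under 0.05 the counts were 225, 320, 394 and 333 genes, and the smallest adjusted p-values were 0.9993, 0.9999, 0.803 and 0.230. With no filter on low counts (21908 genes) the calls were 2, 24, 17 and 15. In simulated data of the wild-type comparison, 27.8% of the genes given a log2 difference of 1 and 79.6% of those given 2 were recovered among 7180 genes. CPM measure RNA in the pool of cells, in which a change in the mix of cells and a change within cells cannot be told apart.

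*Cldn5*, which seals the tight junction, had the smallest p-value for tamoxifen in wild-type mice. It stood at 1425, 1310 and 1245 CPM in the wild-type libraries with oil (1326 ± 91.2, n = 3), and at 651, 740, 955, 913 and 754 CPM with tamoxifen (802 ± 127, n = 5). It was 545, 596, 780 and 605 CPM in *Esr1* cKO mice with oil (632 ± 102, n = 4) and 668, 845, 583 and 881 CPM with tamoxifen (744 ± 142, n = 4). The 3 wild-type libraries with oil lay above the other 13. The log2 fold change of tamoxifen was -0.70 (SE 0.17, edgeR adjusted p=0.999) in wild-type mice and 0.24 (edgeR adjusted p=0.9999) in *Esr1* cKO mice, with an interaction of 0.95 (edgeR adjusted p=0.803), and that of genotype was -0.57 (edgeR adjusted p=0.424). *Cldn5* is a gene of the rule, and libraries 1 and 10 are among those that stood apart. With *Cldn5* taken out of the rule the tamoxifen and genotype values were -0.72 and -0.55. DESeq2 gave *Cldn5* an adjusted p of 0.0167 for genotype, against a range up to 0.895 over the other settings. This gene was 1 of 275 genes (3.69% of those tested) whose wild-type groups did not overlap, and it was named for its p-value.

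Among the genes with the smallest p-values for genotype, beside *Cldn5*, were *Acap2*, an ARF GTPase-activating protein of membrane traffic, the interleukin-1 receptor *Il1r1*, and *Dixdc1*, a regulator of Wnt signalling. *Acap2* stood at 69.3, 77.4 and 81.2 CPM in wild-type mice with oil and at 70.1, 94.4, 95.5, 90.8 and 44.8 CPM with tamoxifen. In *Esr1* cKO mice it was 114, 156, 110 and 148 CPM with oil and 128, 122, 115 and 129 CPM with tamoxifen. All 8 *Esr1* cKO libraries lay above all 8 wild-type libraries, and *Acap2* was the 1 gene of 7444 (0.0134%) of which this was so. The log2 fold change was 0.72 (SE 0.16, edgeR adjusted p=0.512), and ranged from 0.65 to 1.07 over the other settings with adjusted p from 0.153 to 0.9999. *Il1r1* (log2 fold change 0.98) and *Dixdc1* (0.73) did not pass either, and their groups overlapped. *Il1r1* passed with no filter on low counts (0.997, edgeR adjusted p=0.0164).

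**Figure D2:**
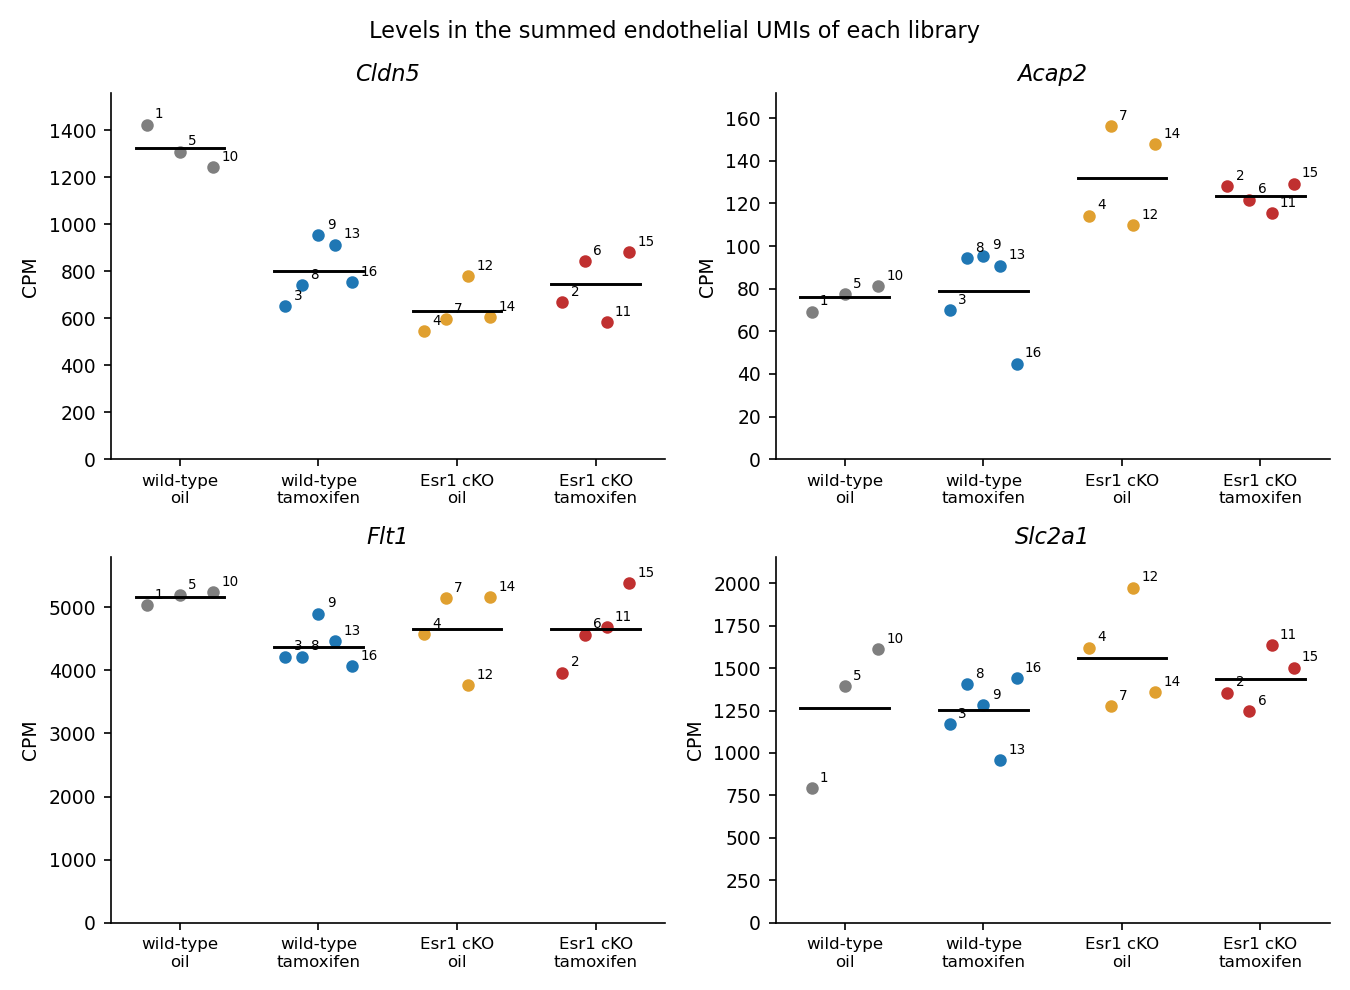
CPM in the summed endothelial UMIs (y axes start at 0) of *Cldn5*, *Acap2*, *Flt1* and *Slc2a1* in the 4 groups (x axis), with library numbers beside the points and group means as bars. *Cldn5* is higher in all 3 wild-type libraries with oil (1245 to 1425 CPM) than in the other 13 (545 to 955 CPM), and *Acap2* is higher in all 8 *Esr1* cKO libraries (110 to 156 CPM) than in the 8 wild-type ones (44.8 to 95.5 CPM), while neither passed an adjusted p of 0.05.

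After the filter on low counts, the lists of genes had no calls either. Of 22 barrier carriers tested, 0 passed in any of the 4 group comparisons, with a median log2 fold change of -0.05 for tamoxifen in wild-type mice and -0.00 in *Esr1* cKO mice, beside 0.03 and -0.03 over all genes. Of 20 endothelial identity genes, 10 tight junction genes, 17 genes of the Wnt barrier program and 14 VEGF and Notch genes tested, 0 passed either. The 18 MHC and interferon genes tested had a median of 0.33 for tamoxifen in *Esr1* cKO mice. Of them 14 were above 0, 4 were higher at an unadjusted edgeR p under 0.05 and 0 passed the threshold. Over all 7444 genes, 46.6% were above 0 and 162 were higher at that unadjusted p. In wild-type mice the median of the 18 was -0.03, with 8 above 0 and 2 lower at that unadjusted p. Over all genes 53.6% were above 0 there and 101 were lower at that p. The 9 venous genes tested had a median of 0.82 for genotype beside -0.00 over all genes. Of them 8 were above 0, 5 were higher at an unadjusted edgeR p under 0.05 and 0 passed the threshold. Over all 7444 genes, 49.8% were above 0 and 195 were higher at that unadjusted p. The venous genes included *Vwf* (0.93), which codes for von Willebrand factor, and *Vcam1* (1.01), which binds leukocytes. Library 6 held 415 CPM of *Vcam1* against at most 130 CPM in the other libraries. With no filter on low counts 6 venous genes passed for genotype, all higher, beside 13 higher and 2 lower of all 21908 genes. Among the 6 were *Vwf* (edgeR adjusted p=0.000704) and *Vcam1* (edgeR adjusted p=0.00247). This fit held library 6, which stood alone in venule genes as given below. Red blood cell RNA was higher on average with tamoxifen, in overlapping groups. Its 5 genes summed to 13885 ± 9679 CPM in wild-type mice with oil and 26185 ± 6686 with tamoxifen, and to 16197 ± 6907 and 31212 ± 12656 CPM in *Esr1* cKO mice, led by *Hbb-bs*, with none of the 5 at 0 in all libraries. The 4 globin genes tested were above 0 in both genotypes. At an unadjusted edgeR p under 0.05, 3 were higher in wild-type mice (124 of all 7444 genes) and 4 in *Esr1* cKO mice (162). After adjustment 0 globins passed. All 4 passed with no filter on low counts in *Esr1* cKO mice (edgeR adjusted p=0.000135 to 0.0366) and 0 in wild-type mice, and their part in other values was not tested.

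The other genes with the smallest p-values were of low level. In wild-type mice tamoxifen libraries had more *Pdzd2* (log2 fold change 1.12), *Col25a1* (2.62) and *Irak2* (1.74), a kinase of interleukin-1 signalling. *Col25a1* had 161 UMIs in all, and stood at 87.1 CPM in library 13 (with tamoxifen) against at most 42.2 CPM in any other library. Library 10 (with oil), which stood apart, had 0 CPM of *Col25a1* and the lowest *Pdzd2* of all libraries (33.8 CPM). In *Esr1* cKO mice the genes with the smallest p-values were *Ecscr* (1.02), *Anapc1* (1.04), *C1qbp* (1.03), *Lactb* (-1.34) and the mineralocorticoid receptor *Nr3c2* (-1.50). *Ecscr* is an endothelial receptor that regulates migration. *Ecscr* stood at 41.5, 49.3, 87.3 and 78.0 CPM with oil and at 152, 183, 115 and 98.1 CPM with tamoxifen, without overlap, as was so for 188 genes (2.53%) of that comparison. For the interaction *Lphn3* (-1.94), *Pdzd2* (-1.55), *Gpatch2* (-1.71) and *Gstp1* (1.41), a glutathione enzyme, led beside *Cldn5*. None of these passed (edgeR adjusted p=0.803 or above). *Nr3c2* passed with no filter on low counts for tamoxifen in *Esr1* cKO mice (-1.49, edgeR adjusted p=0.00564) and for the interaction (edgeR adjusted p=0.0327), as did *Lphn3* for the interaction (-1.93, edgeR adjusted p=0.0165). Libraries 10 and 11, which stood apart, had the lowest levels of both genes. They held 16.9 and 19.6 CPM of *Nr3c2* and 23.7 and 39.1 CPM of *Lphn3*.

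Library 6, an *Esr1* cKO mouse with tamoxifen, stood alone in genes of activated venules, and was singled out after its values were seen. *Lcn2*, an acute-phase protein that binds bacterial iron carriers, was at 612 CPM in its endothelial cells and at 0 to 24.5 CPM in the other 15 libraries. *Ackr1*, a chemokine-binding protein of venules (listed as *Darc*), was at 548 CPM against 0 to 37.9, and *Vcam1* at 415 CPM against 16.4 to 130. The selectins *Sele* and *Selp*, which slow rolling leukocytes, were at 147 CPM (0 to 8.70 elsewhere) and 50.1 CPM (0 to 9.48 elsewhere), the secreted *Lrg1* at 208 CPM (0 to 39.6) and the sterol enzyme *Ch25h* at 111 CPM (0 to 28.1). *Lcn2* was found in 20.2% of the 267 endothelial cells of this library (median 794 UMIs) and in 1.17% of its other kept cells (54.9 CPM; all its kept cells had a median of 642.5 UMIs). *Ackr1* was found in 16.5% and 0.925%. Neutrophil genes were also high in these cells, with *S100a8* at 616 CPM (at most 19.8 elsewhere), *S100a9* at 433, *Camp* at 125 and *Ngp* at 107 CPM, and their part in the result was not tested.

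The list of 18 adhesion and inflammation genes was not matched in full by the symbols of the data. Of its genes *Icam1* (68.0 CPM), *Icam2* (168), *Nfkbia* (1342), *Il1r1* (104), *Socs3* (78.8), *Cebpb* (14.3) and *Tnfrsf1a* (32.2 CPM) of library 6 fell within the range of the other libraries. *Ccl2* and *Il6* had 0 UMIs, which allows up to 10.7 CPM. *Cxcl1* (82.3 CPM against at most 31.2) and *Ptgs2* (64.4 CPM against at most 39.6) lay above the range of the other libraries. Counting genes of at least 50 CPM that stood more than 2-fold above every other library gave 25 in library 6, 71 in library 1, the shallowest, and 0 to 7 in each of the other 14. *Il2rg* (150 CPM), *Csf1* (222 CPM) and *Timp4* (85.9 CPM) were among the 25. The cells of library 6 had 845 CPM of *Cldn5* and 4564 CPM of *Flt1*, inside the range of their group. Without library 6 the tests of tamoxifen in *Esr1* cKO mice, of the interaction and of genotype still called 0 genes. Without libraries 10 and 11 *Ackr1* alone passed for tamoxifen in *Esr1* cKO mice (log2 fold change 4.45, edgeR adjusted p=0.0494). With no filter on low counts, genes that were high in library 6 were also called there: *Lcn2* and *Ackr1* (edgeR adjusted p=3.06e-18 and 3.09e-18), *Sele* (0.00195), *Lrg1* (0.00706), *Vcam1* (0.0208) and the neutrophil gene *S100a8* (4.98e-25). All of these values rest on 1 mouse.

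**Figure D3:**
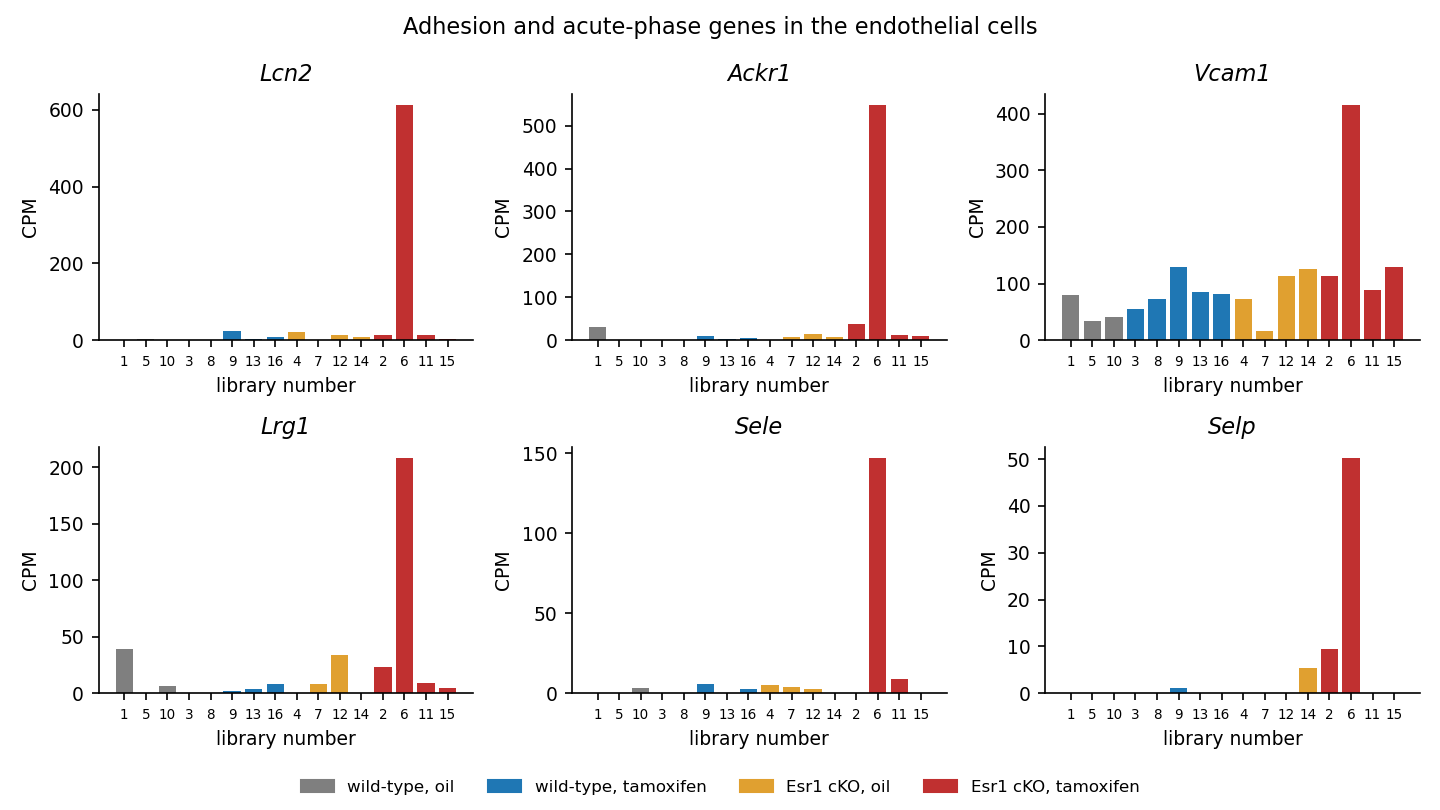
CPM (y axes, each with its own scale from 0) of 6 adhesion and acute-phase genes in the endothelial cells of each library (x axis, library numbers ordered and coloured by group). Library 6 is the tallest bar in every panel, at 612 CPM for *Lcn2* and 548 CPM for *Ackr1*, while the other 3 *Esr1* cKO libraries with tamoxifen stay at or below 37.9 CPM for both.

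Within each library, the non-arterial cells were next set against the *Gkn3*-positive endothelial cells, which met the same rule but had at least 2 UMIs of *Gkn3*, a marker of arterial brain endothelium. These were 584 cells (9.14% of all 6387 endothelial cells) with a median of 1393.5 UMIs against 677. Over the 14 libraries with at least 10 cells of each kind (574 against 5399 cells), 415 of 3594 genes were higher (11.5%) and 382 lower (10.6%) in *Gkn3*-positive cells, by edgeR's quasi-likelihood test with library as block and adj. p under 0.05, and the median log2 fold change of all genes was 0.01. *Gkn3* and the genes of the rule were left out of the test. Genes were tested if at least 13 of the summed profiles of both classes reached 57.9 CPM, and a gene that reached this in 1 class alone can owe its place in the test to being high there. In all, 1507 genes reached it in each of the classes, and these held 264 of the 415 higher and 146 of the 382 lower genes.

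Many nutrient carriers were lower in the *Gkn3*-positive cells. Of 21 barrier carriers tested, 9 reached the cutoff in both classes, and 6 of these were lower in *Gkn3*-positive cells and 0 higher. Over all 1507 such genes, 146 were lower and 264 higher. With the cutoff set by the depth of each class, which is stricter for the smaller one, 6 of the 21 reached it in both. Of these 3 were lower and 0 higher, beside 73 lower and 182 higher of all 628 such genes. Another 11 carriers reached the shared cutoff in the non-arterial cells only, and all 11 were lower in *Gkn3*-positive cells. Over all 773 such genes, 170 were lower. *Slc38a5*, a glutamine carrier, averaged 209 ± 41.0 CPM in the non-arterial cells and had 8 UMIs in all *Gkn3*-positive cells (7.03 CPM pooled), too few for a fold change. *Slc3a2*, the heavy chain of amino acid carriers and above the cutoff in both classes, averaged 501 CPM in non-arterial against 205 CPM in *Gkn3*-positive cells (log2 fold change -1.24, SE 0.099, edgeR adjusted p=1.64e-16). Among those above it in non-arterial cells only, *Slc7a5*, the large neutral amino acid carrier, averaged 341 against 55.0 CPM (-2.63), *Slc16a1* 380 against 77.9 (-2.42) and *Tfrc* 633 against 125 CPM (-2.40). These 4 were lower in 14 of 14 libraries. Among the 3 carriers that did not pass were *Slc2a1*, at 1427 ± 242 and 1459 ± 270 CPM (0.04, SE 0.06), and *Slc6a6*, for taurine, at 1670 and 1868 CPM (0.16). All 11 capillary-zone genes were lower in *Gkn3*-positive cells, among them the carbonic anhydrase *Car4* (-2.24), the chemokine *Cxcl12* (-1.23) and *Mfsd2a* (-1.09), and 5 of the 11, these 3 included, reached the cutoff in both classes. Of 9 tight junction genes, 6 reached the cutoff in both classes, and of these *Tjp1* (-0.41) and *Ctnnb1* (-0.36) were lower. *Ocln* (-0.65) reached it in the non-arterial cells only.

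The *Gkn3*-positive cells were higher in all 12 arterial-zone genes tested (median 1.79), 8 of which reached the cutoff in both classes. Beside these and the lists below, 11.5% of all 3594 genes were higher and 10.6% lower. Of the 1507 that reached the cutoff in both classes, 264 were higher and 146 lower. *Mgp*, a matrix inhibitor of calcification, averaged 2956 against 213 CPM (3.77) and the surface protein *Tm4sf1* 1799 against 628 CPM (1.54). Glutamine synthetase *Glul* averaged 1604 against 882 CPM (0.86) and the kinase *Bmx* 430 against 60.7 CPM (2.76). Each was higher in 14 of 14 libraries. *Bmx* lay near the cutoff in non-arterial cells, so it can owe its place in the test to being high in *Gkn3*-positive cells. Of 11 VEGF and Notch genes, 4 reached the cutoff in both classes, and of these the Notch ligand *Jag1* (2.02) and the Notch target *Hes1* were higher and the VEGF co-receptor *Nrp1* (-0.58) was lower. *Vegfc* (2.55) and *Jag2* reached it in *Gkn3*-positive cells only, where they were higher. *Nrp2* (-1.87) reached it in non-arterial cells only, where it was higher. So did the receptor *Kdr* (-1.47), which belongs to the endothelial identity list and not to these 11 genes. Of 16 immediate early genes, which respond within minutes to stimuli that include tissue handling, 14 were higher and 0 lower (median 0.83), led by *Atf3* (1.32), *Nr4a1* (1.29) and *Egr1* (1.23). Of 15 MHC and interferon genes 10 were higher and 0 lower, with *H2-D1* at 0.79. Among them 10 reached the cutoff in both classes, and 9 of those were higher. All 8 mitochondrial genes tested were lower (median -0.35). All 16 immediate early and all 8 mitochondrial genes reached the cutoff in both classes. Smooth muscle genes were among those with the largest differences: *Lmod1* (2.70), *Myh11* (2.67), *Tpm2* (2.58) and *Mustn1* (2.42), each above the cutoff in *Gkn3*-positive cells only. Of 7 mural markers tested, *Myh11* (597 against 81.2 CPM), *Higd1b* and *Rgs5* (4847 against 3205 CPM) were higher and *Abcc9* lower. Of other cells' markers, 3 of 4 of oligodendrocytes (median -0.58), 3 of 4 of astrocytes (median -0.68) and 3 of 4 globins (median -0.99) were lower, of which 2, 1 and 1 reached the cutoff in both classes. Of 3 neuronal markers *Stmn2* was higher (661 against 131 CPM, 2.39) and the other 2 did not pass. *Stmn2* is also 1 of the 12 arterial-zone genes above. The part of RNA from other kinds of cell in the comparison was not tested.

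The non-arterial cells themselves varied along the vessel axis. Cells with at least 1 of 8 venous genes (among them *Vwf*, *Slc38a5*, *Vcam1*, *Tshz2*, *Nr2f2*, *Ackr1* and *Il1r1*) and none of 8 arterial genes (*Bmx*, *Sema3g*, *Mgp*, *Fbln5*, *Vegfc*, *Hey1*, *Gja4* and *Efnb2*) were called venous-leaning (1639 cells), the reverse arterial-leaning (784 cells). A further 645 cells had genes of both lists and 2735 had neither, and these 4 classes are ranges of a mix that sparse counts leave unclear, with median UMIs of 853, 768.5, 1429 and 516. Over all 16 libraries, 77 of 1152 genes were higher (6.68%) and 89 lower (7.73%) in venous-leaning cells (edgeR, library as block, adj. p under 0.05), with a median log2 fold change of -0.02 over all genes. The genes of the split were not tested. Here the cutoff was 156 CPM in 15 summed profiles, and 442 genes reached it in both classes. These held 35 of the 77 higher and 55 of the 89 lower genes.

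Some carriers differed between these classes. Of 16 barrier carriers tested, 10 reached the cutoff in both classes. Of these *Tfrc*, *Slc3a2*, *Slc22a8* and *Abcg2* were higher and *Mfsd2a* lower in venous-leaning cells. Over all 442 genes that reached it in both, 35 were higher and 55 lower. With the cutoff set by the depth of each class, 5 carriers reached it in both, 1 of them higher and 0 lower. Over all 212 such genes, 18 were higher and 34 lower. *Tfrc* averaged 785 ± 188 CPM in venous-leaning and 350 ± 170 CPM in arterial-leaning cells (log2 fold change 1.13, SE 0.11, edgeR adjusted p=4.10e-11) and was higher in 16 of 16 libraries. The anion carrier *Slc22a8* averaged 444 against 282 CPM (0.71) and *Abcg2* 797 against 629 CPM (0.32). Over all 203 genes that reached the cutoff in venous-leaning cells only, 28 were higher there. They included all 5 carriers of this kind. Of these *Slc40a1*, the iron exporter ferroportin, averaged 346 against 159 CPM (0.97, 15 of 16 libraries), *Slc16a1* 466.2 against 196.3 CPM (1.31), the glutamine carrier *Slc38a3* 345 against 170 (1.03), *Slc7a5* 389.5 against 248.6 (0.77) and the arginine carrier *Slc7a1* 400 against 258 CPM (0.66). *Mfsd2a* averaged 275 against 348 CPM (-0.45) and was higher in venous-leaning cells in 4 of 16 libraries. *Slc2a1* (-0.05), *Slco1c1* (-0.10) and *Slc6a6* (-0.05) did not pass, with standard errors of 0.08 each, and neither did *Abcc4* and *Slc39a10*.

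Of 11 capillary genes tested, 6 reached the cutoff in both classes, and of these *Tfrc* and *Slc22a8* were higher and *Cxcl12* (1534 against 2382 CPM, -0.69, lower in 16 of 16 libraries) and *Mfsd2a* were lower in venous-leaning cells. *Car4* (1.16), *Fmo2* (1.43), *Slc16a1* and *Slc7a5* reached it in venous-leaning cells only, where they were higher, and *Ivns1abp* (-0.46) in arterial-leaning cells only, where it was higher. The arterial-zone genes left to test were lower in venous-leaning cells in 4 of 4: *Tm4sf1* (397 against 1061 CPM, -1.53), *Crip1* (-0.96), *Glul* (-0.97) and the endothelin gene *Edn3* (-0.81). Of these 3 reached the cutoff in both classes, and over all 1152 genes 89 were lower. Other large differences were *Tmsb10* (1.79), *Lrba* (1.76), *Sema6a* (1.34), *Net1* (1.18), *Polk* (1.10) and *Nampt* (1.07), all higher, and *Timp3* (-1.22), *Tgfb2* (-1.05) and *Plk2* (-1.05), lower, and none of these 9 reached the cutoff in both classes. *Ctla2a* was also higher (774 against 396 CPM). Of 15 immediate early genes, 12 reached the cutoff in both classes, and of these *Egr1*, *Btg2* and *Cyr61* were lower. *Ier3*, above it in venous-leaning cells only, was higher there, and *Nr4a1* (-0.75), above it in neither class alone, was lower in venous-leaning cells. Globins were lower in venous-leaning cells in 4 of 4 genes (-1.92 to -1.69), of which 1 reached the cutoff in both classes and 2 in venous-leaning cells only, and the mural marker *Rgs5* was at 2593 against 3834 CPM (-0.65) with *Vtn* also lower (-0.35). The part of blood and mural RNA in these differences was not tested.

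**Figure D4:**
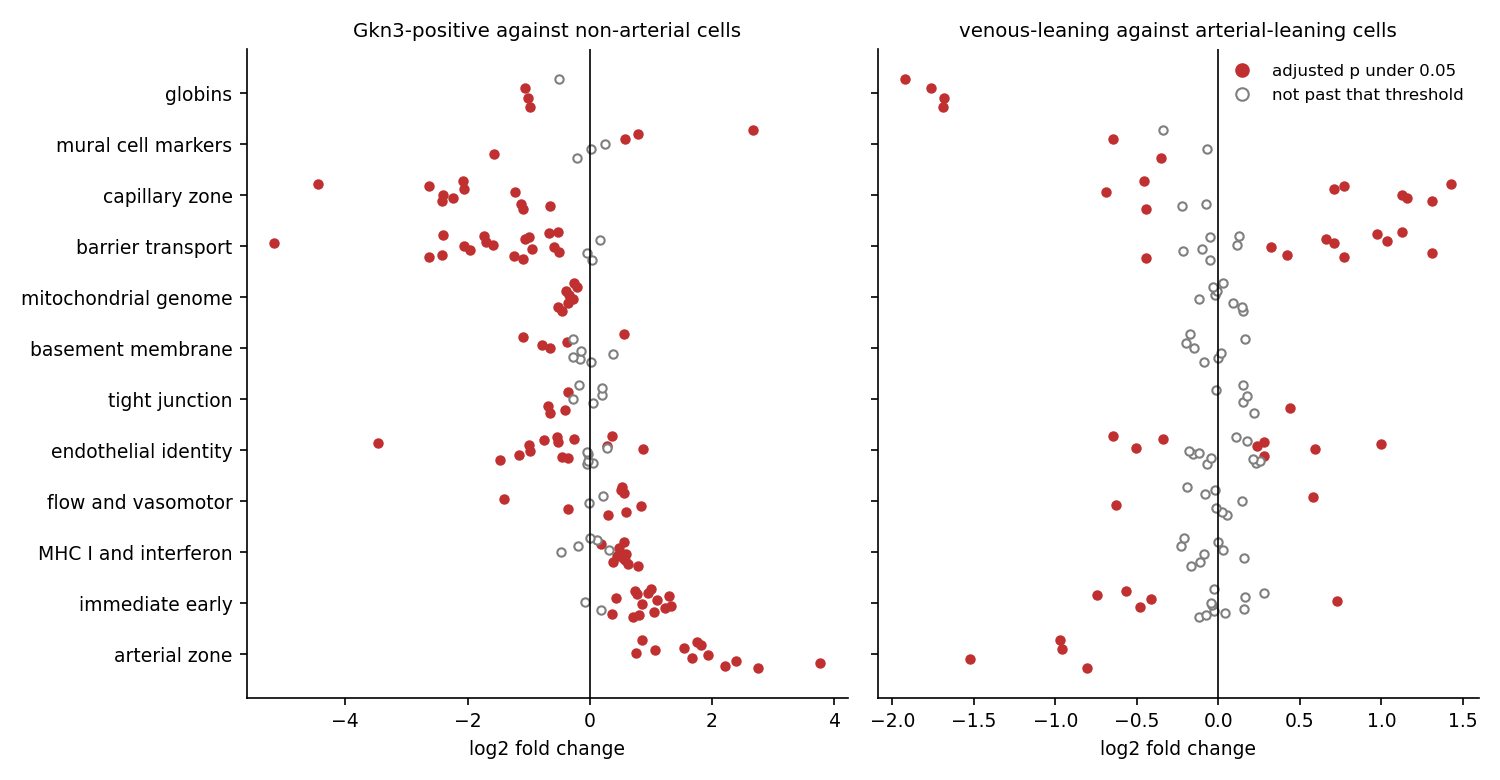
Log2 fold changes (x axes) of the members of 12 gene lists (rows) in *Gkn3*-positive against non-arterial cells (left) and in venous-leaning against arterial-leaning cells (right). Filled points passed an adjusted p of 0.05. On the left 18 of 21 carriers were lower, and 6 of the 9 that reached the cutoff in both classes. On the right 9 of 16 were higher and 1 lower. Of the 10 that reached the cutoff in both classes there, 4 were higher and 1 lower.

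Pooled levels set the classes side by side. *Tfrc* was at 112 CPM in *Gkn3*-positive cells, 339 in arterial-leaning, 789 in venous-leaning, 467 in cells with genes of both lists and 613 CPM in cells with neither, and *Car4* was at 137, 373, 861, 422 and 669 CPM in the same order. *Tm4sf1* ran the other way, at 1903, 1167, 407, 892 and 572 CPM. *Mfsd2a* was at 137, 331, 258, 215 and 353 CPM and *Cxcl12* at 867, 2443, 1568, 1502 and 2753 CPM, so both were highest in the cells with neither kind of gene. *Slc2a1* stayed between 1315 and 1442 CPM in the 5 classes. Cells with both or neither kind of gene also differ in depth and hold no set place along the vessel. These pooled values carry no replicate error, and the tests are those given above.

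**Figure D5:**
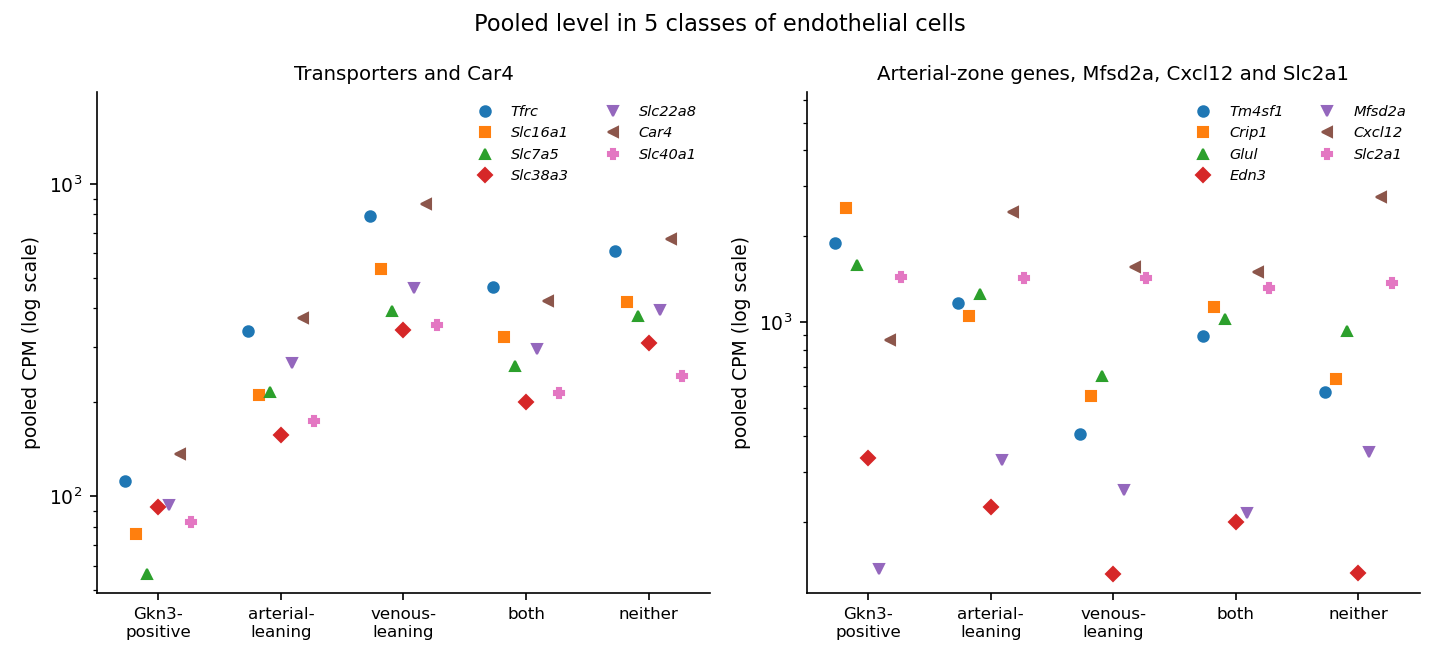
Pooled CPM (log axes) of 14 genes, each with its own marker, in 5 classes of endothelial cells (x axis; both and neither are cells with genes of both lists and of neither). *Tfrc* is at 112 CPM in *Gkn3*-positive and 789 CPM in venous-leaning cells, *Tm4sf1* at 1903 and 407 CPM, and *Slc2a1* lies between 1315 and 1442 CPM in all 5 classes.

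No difference in the share of venous-leaning cells between treatments or genotypes passed the test. After each cell was thinned to 500 UMIs, with 225, 801, 368 and 490 shallower cells left out of the 4 groups, it averaged 26.8% ± 4.12 in wild-type mice with oil, 26.2% ± 3.44 with tamoxifen, 27.7% ± 2.41 in *Esr1* cKO mice with oil and 30.03% ± 3.32 with tamoxifen (unthinned means 29.9%, 27.7%, 29.1% and 29.6%). The differences were -0.574, 2.30 and, for genotype, 2.40 percentage points (exact permutation tests, p=0.875, 0.343 and 0.164, adj. p=0.875, 0.536 and 0.536). The genotype difference stayed between 1.65 and 3.57 points whichever 1 library was left out. It moved most without library 10, to 3.57 points (exact permutation p=0.0291, not adjusted), and without libraries 10 and 11 it was 4.14 points (exact permutation p=0.0167, not adjusted). The wild-type tamoxifen difference turned to 1.77 points without library 10 and to 0.257 points without library 16.

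*Plvap*, which marks fenestrated vessels, was found in 56 of the 5803 cells. Pooled, these cells had 1238 CPM of *Igfbp3* against 25.7 in cells without *Plvap*, 800 against 27.2 CPM of *Plpp1*, 1061 against 114 of *Plpp3*, 391 against 1.12 of *Esm1* and 1247 against 450 CPM of *Kdr*. Barrier genes were lower in them, with *Cldn5* at 195 against 858 CPM, *Abcb1a* at 410 against 1720, *Slco1a4* at 614 against 2314, *Slc2a1* at 344 against 1408 and *Mfsd2a* at 37.2 against 294 CPM. These are pooled values with no test, since only library 13 had at least 10 such cells, and *Cldn5*, *Abcb1a* and *Slco1a4* belong to the rule that chose the cells. After thinning, *Plvap*-positive cells were 1.41% ± 2.04 of the endothelial cells in wild-type mice with oil, 0.429% ± 0.393 with tamoxifen, 0.793% ± 1.35 in *Esr1* cKO mice with oil and 0.0700% ± 0.140 with tamoxifen (unthinned 1.89%, 0.956%, 1.05% and 0.600%). The differences of -0.978, -0.723 and, for genotype, -0.486 percentage points did not pass (exact permutation tests, p=0.393, 0.429 and 0.447, adj. p=0.536 each). Without library 1 the wild-type and genotype differences turned to 0.194 and 0.09996 points.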

How the data were processed

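Hypothalamus-POA cells of 16 mice were captured by Drop-seq. The authors deposited, for each mouse, a table of UMI counts per gene and barcode, and the submitters' processing notes name STAR 2.6, Seurat 3.6.1 and the mm10 build. Library totals ran from 2634253 to 8038158 UMIs. Cells were chosen by the rule given above, and no doublet caller was run. The members, gene lists and tests were chosen with earlier results of these data known.

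UMI counts were summed per mouse and tested with edgeR 4.0.16 (quasi-likelihood, TMM, R 4.3.3) over 4 groups, or with library as block between classes within libraries that had at least 10 cells of each, after a filter on low counts. P-values were adjusted over all genes tested (Benjamini-Hochberg, threshold 0.05). DESeq2 1.42.0 was an alternative. Labels do not say whether mice shared a litter or day, so p-values measure the spread between these 16 mice. Shares were compared by exact permutation over mice (scipy 1.17.1), and classes after thinning to 500 UMIs per cell. Intervals (exact, 95%) and the 3-count floor cover counting error only. Scripts were tested on simulated data. 0 columns of other samples were present.

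Genes were named by a rule: up to 10 in each direction past the threshold with the largest fold change and at least 50 CPM in the higher class, or the 5 with the smallest p where none passed, plus list members that passed or were most abundant, the rule's genes, steroid receptors and label checks. Genes of library 6 were chosen after their values were seen. Results for some genes are not reported here. The *Plvap* comparison was not run as a test because only 1 library had enough cells.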

Additional observations from a re-analysis of the deposited data

Results flagged for a closer look

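In 123 groups of libraries, over 41 quantities, the highest or lowest library was tested for standing apart by Dixon's criterion, which chance meets in about 1 of 20 groups, and 9 did so.

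Label checks gave outlying libraries. *Xist* was at 0.582 CPM in library 12 against 276 to 318 in its group, and at 330 in library 13 against 247 to 264 in its group. Library 12 also had the highest Y-linked sum of the 16 libraries, at 45.6 CPM against 15.3 to 22.5 in its group. Y-linked genes were at 31.3 CPM in library 3 against 18.7 to 21.6 in its group. In library 12 *Ly6a*, a gene of the rule, was at 3212 CPM against 2067 to 2137 CPM.

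Among shares, *Plvap*-positive cells were 2.81% in library 7 against 0% to 0.365% in its group, and 0.280% in library 11, where the other 3 of its group had 0. Venous-leaning cells were 32.03% in library 3 against 22.9% to 25.5%. The microglial marker sum in library 3 was 220 CPM against 36.7 to 75.9 CPM, and *Il1r1* in library 13 was at 78.1 CPM against 47.2 to 55.1 CPM.

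For *Lphn3* and *Gpatch2* the tamoxifen libraries lay wholly on opposite sides of the oil libraries in the 2 genotypes. Only genes already named for a small p-value were checked for this, these 2 for the interaction. It is therefore no separate support, and its share over all genes was not counted. *Lphn3*, a latrophilin adhesion receptor, was at 23.7 to 98.9 CPM with oil and 105 to 115 CPM with tamoxifen in wild-type mice, and at 90.5 to 151 and 39.1 to 89.5 CPM in *Esr1* cKO mice (interaction -1.94). *Gpatch2* gave an interaction of -1.71. The test of the difference itself did not pass for either gene (edgeR adjusted p=0.803), and with no filter on low counts that of *Lphn3* passed (-1.93, edgeR adjusted p=0.0165). Libraries 10 and 11, which stood apart, had the lowest *Lphn3* of all libraries (23.7 and 39.1 CPM).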

How the results depend on the processing

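In the simulated wild-type comparison, 27.8% of genes with a log2 difference of 1 were recovered at this depth. Leaving out any 1 of the 16 libraries left 0 genes called for genotype and for the interaction. For tamoxifen within a genotype, leaving out any 1 of the 8 libraries of that genotype also left 0 called. DESeq2 called 2 genes for genotype (1 of them *Cldn5*), a term for libraries 10 and 11 called 1, and leaving out both libraries called 1 for tamoxifen in *Esr1* cKO mice (*Ackr1*). With no filter on low counts (21908 genes) the calls were 2 for tamoxifen in wild-type mice, 24 in *Esr1* cKO mice, 17 for the interaction and 15 for genotype. *Gkn3*-positive against non-arterial cells gave 1400 calls with no filter (409 higher, 991 lower, 573 shared with the 797 reported) and 326 when none of the 13 genes of other cell types was allowed (310 shared). Venous- against arterial-leaning cells gave 391 (320 higher, 71 lower, 94 shared) and 110 (103 shared). With no filter *Ly6e* turned to -0.037 in the first and *Id3* to 0.080 in the second. Of single genes named in these comparisons, 75 and 40 values over all settings no longer passed, and 1150 and 385 kept direction and call.

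Leaving out 1 library gave differences in the endothelial share of -0.185 to 1.97 points (tamoxifen, wild-type), 2.01 to 3.61 (tamoxifen, *Esr1* cKO) and 0.538 to 1.4999 (genotype). For *Plvap*-positive cells they were -1.68 to 0.194, -0.988 to -0.0516 and -0.838 to 0.09996 points, and for venous-leaning cells -2.08 to 1.77, 0.797 to 3.44 and 1.65 to 3.57 points. Without libraries 10 and 11, and without 10, 11 and 12, the wild-type venous-leaning difference was 1.77 points and that of genotype 4.14 and 4.38 points (exact permutation p=0.0167 and 0.0196). Leaving out libraries 10, 11 and 12, cells of shared barcodes, and *Cldn5* from the rule, and comparing shares within fours of library numbers, were chosen after seeing the data. The causes were not tested. The groups share no replicate number in the labels. A fit with fours of library numbers (1 to 4, 5 to 8, 9 to 12 and 13 to 16) as a block called 0 genes in each of the 4 group comparisons, with 278, 351, 411 and 334 genes at an unadjusted edgeR p under 0.05. Within these fours the wild-type venous-leaning difference was 0.890 points, and the other 8 differences in shares kept their direction. The smallest exact permutation p these fours allow for tamoxifen is 0.25 over 3 wild-type pairs and 0.125 over 4 *Esr1* cKO pairs. The tamoxifen differences could therefore not pass 0.05 here, whatever their size. For genotype a p down to 0.0104 was possible, and the differences did not pass (exact permutation p=0.281 to 0.542). The *Plvap* test across libraries was not run.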
